A study of Homo sapiens with 105 samples.

Results

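The heat shock proteins and cochaperones described here are 36 genes listed by name as HSP70, HSP110, HSP90, small heat shock protein, mitochondrial chaperonin and J-domain family members, with HSP90 cochaperones, nucleotide exchange factors and heat shock factors. Of these, 34 were named by at least 1 probeset of the array, out of 21357 genes named in all, and HSF2 and AHSA1 were not used here. Each gene was read on its probeset with the highest mean level, chosen over all arrays and without regard to treatment. HSPA1A and HSPA1B share 1 probeset, so 33 distinct probesets were followed. The brightest probeset for HSPA1L also names HSPA1A and HSPA1B, and is called the shared HSPA1 probeset. The HSPA8 probeset also names 2 small nucleolar RNAs, and the DNAJB6 probeset also names TMEM135.

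RNA came from Vk2/E6E7, 1 immortalized line of human vaginal epithelial cells carrying the papillomavirus genes E6 and E7, cultured in growth medium (GM). All groups were harvested after 6 h. Pro-inflammatory compounds (PICs) were the cytokine TNF-α at 40 ng/ml (5 arrays), the lipopeptides Pam3CSK4 at 10 μg/ml (6 arrays) and MALP2 at 200 ng/ml (6 arrays), the TLR7 ligand imiquimod (IMQ; 6 arrays) and the detergent spermicide nonoxynol-9 (N-9) at 12.5 μg/ml (9 arrays). The imiquimod dose is 30 mg/ml in the labels and 30 μg/ml in the methods of the study. Non-inflammatory compounds (NICs) were the cellulose ethers HEC and CMC, both at 1 mg/ml (9 arrays each). Untreated GM cells gave 53 arrays. The labels call each array a biological replicate but do not say which ones came from separate cultures, so p-values measure the spread between arrays, which may be partly technical.

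Chaperones of the HSP70 family hold unfolded segments of protein in cycles of ATP binding. J-domain proteins (DNAJ) deliver clients and start ATP hydrolysis, and nucleotide exchange factors such as BAG1, BAG3 and the HSP110 proteins reopen the cycle. HSP90 takes over partly folded clients with the help of cochaperones such as STIP1, PTGES3, CDC37 and FKBP4. Damaged protein frees heat shock factor 1 (HSF1) from this machinery, and HSF1 then binds inverted GAA repeats, the heat shock elements, in promoters. In human cells HSPA6 is known for very low levels at rest and strong induction by proteotoxic stress.

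RefSeq start-site windows (GRCh38.p14, 250 bases before to 50 after each start) were on hand for 32 of the 36 genes. HSPA14, FKBP4, CRYAB and HSF1 had no entry. The motif GAANNTTCNNGAA, searched on both strands (TTCNNGAANNTTC is its reverse complement), was present for 8 of the 32 members (25%), against 0.608% of the 27305 genes in the table. These 8 were HSPA6, HSPA8, HSP90AA1, HSP90AB1, CHORDC1, HSPD1, DNAJA1 and DNAJB6. The shorter motif GAANNTTC was present for 15 of 32 members and 8.21% of all genes, and TTCNNGAA for 12 members and 9.46% of all genes. The GAANNTTC matches of HSPA1A and HSPA1L are the same site, read from opposite strands. Both shorter motifs lie inside the longer one, and all 3 are letter matches only, since no binding was measured. The 250 bases before the start are shown for 6 members with and without a match: HSPA6 (chr1:161524290-161524539, plus strand) and HSPA13 (chr21:14383147-14383396, minus strand), the highest members after N-9; DNAJB1 (chr19:14518398-14518647, minus strand; 1 of its 3 windows), a J-domain gene called higher after N-9 and lower after imiquimod; CHORDC1 (chr11:90223050-90223299, minus strand) and BAG1 (chr9:33264709-33264958, minus strand), the lowest members after imiquimod; and HSPB8 (chr12:119178681-119178930, plus strand), the highest after imiquimod. Capitals mark every GAANNTTC or TTCNNGAA match.
HSPA6: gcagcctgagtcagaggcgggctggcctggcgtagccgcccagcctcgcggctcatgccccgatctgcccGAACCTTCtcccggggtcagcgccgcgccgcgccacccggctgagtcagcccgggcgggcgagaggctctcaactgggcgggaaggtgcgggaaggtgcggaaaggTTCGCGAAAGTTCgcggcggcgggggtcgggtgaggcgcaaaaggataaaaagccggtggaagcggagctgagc
HSPA13: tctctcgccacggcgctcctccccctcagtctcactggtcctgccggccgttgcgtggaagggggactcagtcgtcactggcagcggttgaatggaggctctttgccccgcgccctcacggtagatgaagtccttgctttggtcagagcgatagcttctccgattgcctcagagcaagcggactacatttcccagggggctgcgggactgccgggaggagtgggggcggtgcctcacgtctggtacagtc
DNAJB1: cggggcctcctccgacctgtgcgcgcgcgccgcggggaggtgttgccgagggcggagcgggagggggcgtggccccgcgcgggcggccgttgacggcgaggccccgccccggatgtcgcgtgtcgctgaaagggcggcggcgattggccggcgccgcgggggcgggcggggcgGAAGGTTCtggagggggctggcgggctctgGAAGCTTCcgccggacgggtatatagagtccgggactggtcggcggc
CHORDC1: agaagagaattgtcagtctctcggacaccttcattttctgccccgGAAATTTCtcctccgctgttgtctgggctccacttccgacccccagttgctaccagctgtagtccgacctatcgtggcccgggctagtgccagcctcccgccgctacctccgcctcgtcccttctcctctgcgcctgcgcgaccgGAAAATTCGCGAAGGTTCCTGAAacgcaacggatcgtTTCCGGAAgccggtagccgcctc
BAG1: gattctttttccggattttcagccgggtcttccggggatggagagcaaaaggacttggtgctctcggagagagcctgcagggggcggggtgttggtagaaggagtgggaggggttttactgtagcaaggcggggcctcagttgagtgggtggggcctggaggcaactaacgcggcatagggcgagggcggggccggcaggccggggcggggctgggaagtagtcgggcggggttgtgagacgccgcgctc
HSPB8: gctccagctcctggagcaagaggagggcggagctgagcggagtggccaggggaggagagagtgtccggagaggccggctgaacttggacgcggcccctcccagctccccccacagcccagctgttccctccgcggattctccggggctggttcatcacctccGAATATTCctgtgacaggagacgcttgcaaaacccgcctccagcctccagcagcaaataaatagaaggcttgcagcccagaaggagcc
The 13-base match of HSPA6 began 74 bases before the start, with a separate 8-base match at 180, and CHORDC1 carried 3 overlapping 13-base matches beginning 60, 55 and 50 bases before it, with 8-base ones at 205 and 23. DNAJB1 had 2 separate 8-base matches at 77 and 47 bases before this start, and HSPB8 had 1 at 88 bases before it and another, not shown, after it. BAG1, BAG3, DNAJB5, HSPA2, HSPA13 and HSPH1 had no match in their windows.

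Levels were log2 array signals, quantile normalized over all arrays used, and a member was called where the limma adjusted p, taken over all 54613 probesets tested, was under 0.05. Replicate numbers fell into runs of 3 consecutive numbers whose arrays departed from their group mean together. Over all probesets, the median correlation of those departures was 0.231 for arrays of 1 run and -0.0568 for arrays of different runs in the same group. Over probesets with a mean of log2 6 or above, the medians were 0.530 and -0.0922. The labels do not say what a run is. Each run held 1 group, so a run and the treatment within it cannot be told apart. Calls against GM and between treatments that ended in a fit with the run as a random block are named as lost. The SEs and p-values of the main fit count the arrays of a run as separate. The block fit uses 1 correlation for all probesets, 0.438. Shares of all probesets called were counted in the main fit only, so counts of members from the block fit have no such share beside them. In GM cells the SD of run means exceeded the SD within runs for all 33 member probesets. A call kept with the block may therefore still be stated too strongly. Epithelial markers had summed log2 levels of 15.7 to 16.4 in every group, with 0 of 4 below log2 6, against 4 of 6 fibroblast and endothelial markers, 2 of 4 leukocyte markers and 1 of 3 melanocyte markers below it. COL1A1, at 10.1 to 11.6, and PECAM1, at 8.14 to 8.32, were above it in every group, and their part in the results was not tested. Fewer responding cells and less RNA per cell cannot be told apart in bulk RNA.

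N-9 was followed by higher levels of 8 of the 33 member probesets and lower levels of 3, led by HSPA6, HSPA13 and the J-domain genes DNAJB4 and DNAJB1. Over all probesets, 7.35% were called higher and 10.1% lower after N-9, and over the probesets with a mean of log2 6 or above, where all 33 member probesets lie, 10.2% and 16.0%. With the run as a block, 6 members stayed called higher and 3 lower. Fewer were called higher when GM replicates 1 to 9 were the only controls. No member of the HSP90 family, the HSP90 cochaperones, the mitochondrial chaperonin or the small heat shock proteins was called on its brightest probeset. The median difference over the members was 0.04, against -0.01 over all probesets.

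**Figure D1:**
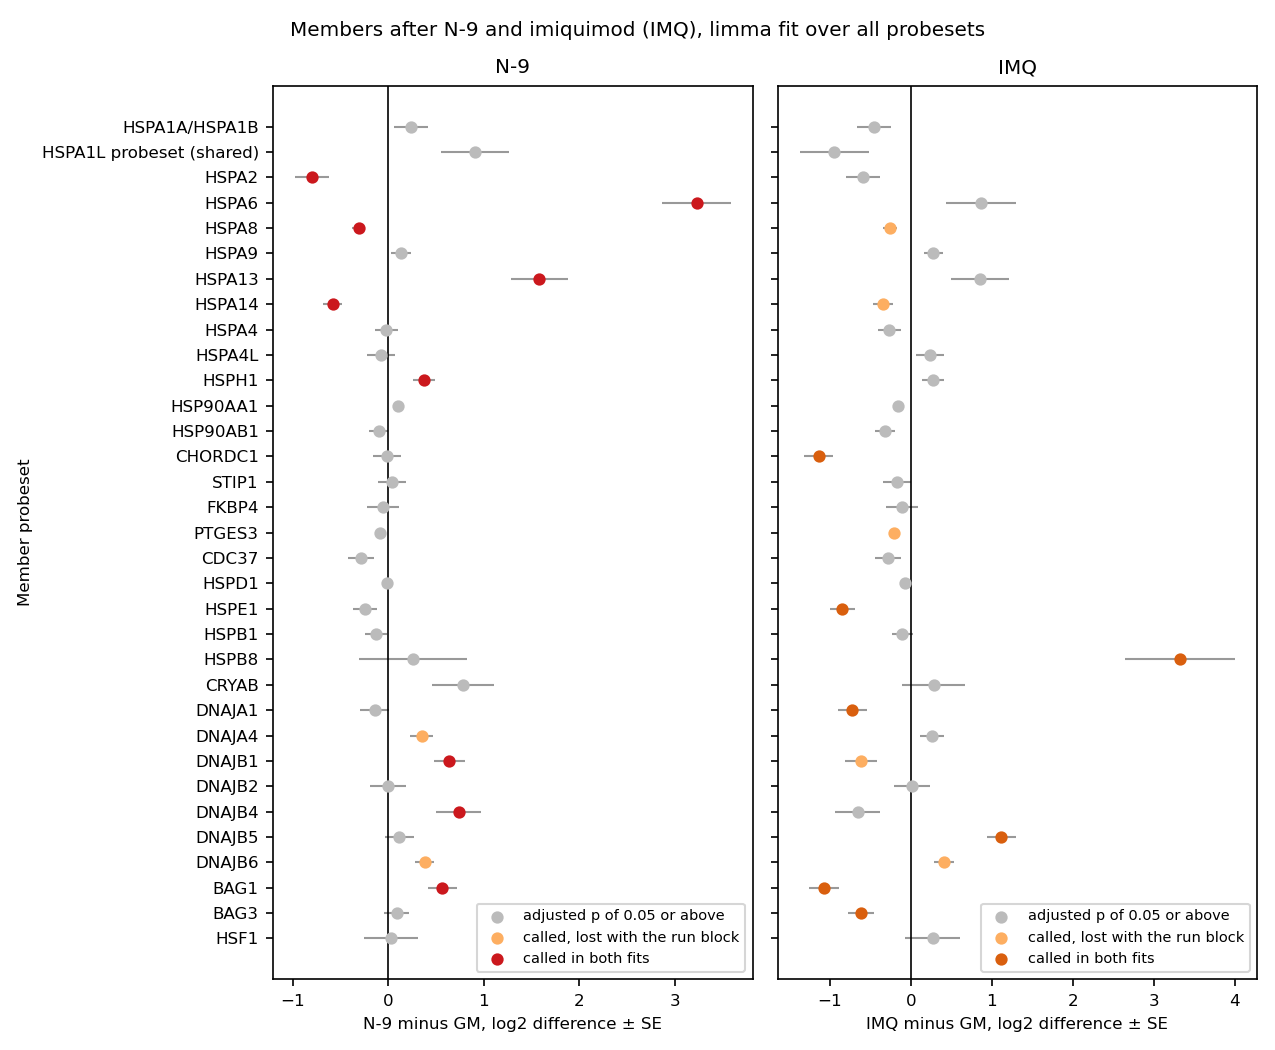
Log2 difference from GM for the 33 member probesets after N-9 (left) and imiquimod (right); points are limma estimates, bars are SE and colours mark calls. HSPA6 lies farthest to the right after N-9 at 3.23, and HSPB8 after imiquimod at 3.33, while CHORDC1 and BAG1 lie farthest to the left after imiquimod.

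Within the HSP70 family, HSPA6, the strictly stress-inducible HSP70, had the largest difference. Its levels in N-9 cells were 7.42, 10.47 and 14.02 (lowest, median and highest of 9 arrays), against 6.23, 7.27 and 9.17 in GM cells. All 9 N-9 arrays lay above the GM median and 6 of them above the highest GM array. The difference was 3.23 ± 0.36 (log2, SE), a 9.37-fold higher level, with an adjusted p of 5.09e-12, and its other probeset gave 2.84. HSPA13, an HSP70 relative of the microsomal compartment, was 10.29, 11.85 and 13.16 in N-9 cells and 8.83, 10.02 and 12.19 in GM cells. The groups overlapped, with a difference of 1.58 ± 0.30 (3.00-fold, adjusted p = 2.38e-05), and the other HSPA13 probeset gave 1.36.

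HSPA2, HSPA14 and HSPA8 fell after N-9. HSPA2, known best for its part in spermatogenesis, was 10.42, 11.41 and 11.80 in N-9 cells and 10.92, 12.12 and 12.83 in GM cells. This was a fall by 0.80 (SE 0.18, adjusted p = 0.00029). HSPA14, an HSP70 bound to the ribosome, was 10.20, 10.72 and 11.16 in N-9 cells and 10.67, 11.25 and 11.82 in GM cells, and fell by 0.58 (SE 0.10, adjusted p = 3.55e-06). Its 2 other probesets gave 0.10 and -0.35. HSPA8, the constitutive HSC70 and the brightest of the members, was 14.05, 14.79 and 15.10 in N-9 cells and 14.31, 15.01 and 15.15 in GM cells, and fell by 0.31 (SE 0.07, adjusted p = 0.000457). The direction for HSPA8 rested on the scaling: on the values as deposited, HSPA8 was 0.068 higher in N-9 cells. On those values the array median was 6.79 ± 0.14 in N-9 cells and 6.57 ± 0.16 in GM cells (SD, adjusted Wilcoxon p = 0.0191). HSPA14 and HSPA2 fell under both scalings.

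The inducible HSP70 genes HSPA1A and HSPA1B did not pass the test on their own shared probeset, which differed by 0.24 (adjusted p = 0.391). Its levels were 12.68 to 14.92 in N-9 cells, a range that spanned nearly the whole GM range of 13.18 to 14.93. The probeset that also names HSPA1L gave 0.91 (adjusted p = 0.0632). A dimmer HSPA1 probeset gave 0.64 (adjusted p = 0.046, and 0.0987 with the run block). HSPH1, the HSP110 that serves HSP70 as an exchange factor, was 0.37 higher (adjusted p = 0.0155).

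Among the J-domain proteins, DNAJB4, DNAJB1, DNAJB6 and DNAJA4 were called higher after N-9. DNAJB4, a partner of HSP70, was 8.90, 10.09 and 12.11 in N-9 cells and 8.42, 9.74 and 11.17 in GM cells, a difference of 0.74 ± 0.23 (adjusted p = 0.0167) that was 1.21 on its other probeset. DNAJB1, the classical HSP40, was 12.55, 13.67 and 14.54 in N-9 cells and 12.14, 12.74 and 14.06 in GM cells, a difference of 0.64 ± 0.17 (adjusted p = 0.00237) that was 1.46 on its other probeset. Both genes overlapped widely with GM cells. DNAJB6 (0.38) and DNAJA4 (0.35) lost their calls with the run block (adjusted p = 0.0627 and 0.163). BAG1, an HSP70 exchange factor, was 0.57 ± 0.15 higher (adjusted p = 0.00407), whereas another BAG1 probeset was lower by 0.93 on the log2 scale (difference -0.93), so the direction for BAG1 depended on the probeset. DNAJB6 also had a probeset of its own that differed by -0.43.

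The 3 runs of N-9 arrays did not behave alike. HSPA6 had run means of 10.31 in replicates 1 to 3, 13.93 in replicates 4 to 6 and 7.49 in replicates 7 to 9, against 6.63 to 8.90 over the 18 GM runs. Set against the mean of GM, the same runs were 7.80-fold, 96.1-fold and 1.10-fold higher. The first 2 runs thus lay above every GM run, and the last lay inside the GM range.

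**Figure D2:**
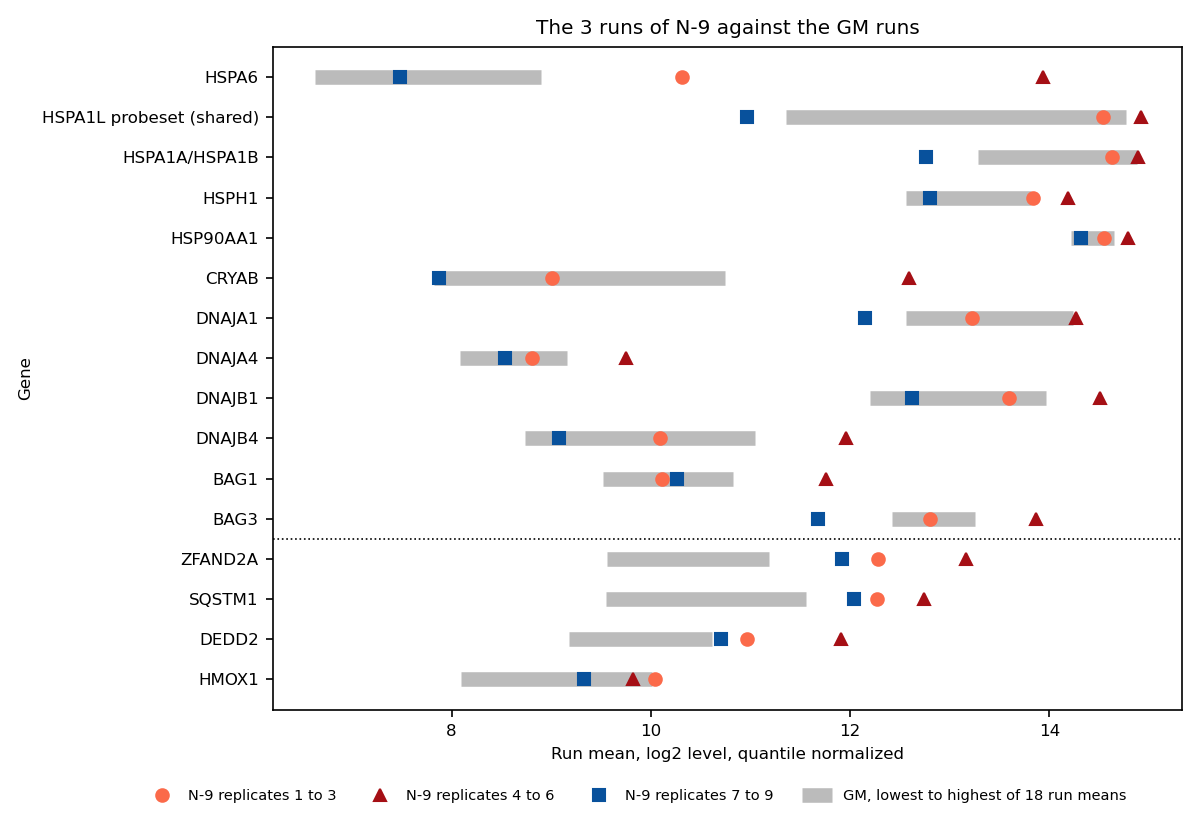
Mean log2 level in each of the 3 N-9 runs (points) against the range of the 18 GM run means (grey bars), for 12 member probesets above the dotted line and 4 other HSF1 target genes below it. The 12 members shown, of 33, were picked because replicates 4 to 6 lay above all GM runs, so their place to the right there follows from that choice. The genes below the line are 4 of the 10 measured, and of these ZFAND2A, SQSTM1 and DEDD2 lie to the right in all 3 runs.

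In replicates 4 to 6, 12 of the 33 members lay above all GM runs and 0 below, against 12.0% and 12.8% of all probesets. They were HSPA6, the HSPA1A probeset, the shared HSPA1 probeset, HSPH1, HSP90AA1, CRYAB, DNAJA1, DNAJA4, DNAJB1, DNAJB4, BAG1 and BAG3. CRYAB, the small heat shock protein alpha-B crystallin, had run means of 9.01, 12.59 and 7.87 in N-9 replicates 1 to 3, 4 to 6 and 7 to 9, against 7.82 to 10.74 in GM runs. BAG3, which links HSP70 to autophagy, had 12.80, 13.87 and 11.68 in the same order, against 12.42 to 13.26 in GM runs. DNAJB4 had 10.09, 11.96 and 9.08, against 8.74 to 11.04, and DNAJA1 had 13.22, 14.27 and 12.15, against 12.56 to 14.24 in GM runs. HSP90AA1, the inducible HSP90, had 14.55, 14.79 and 14.32, against 14.22 to 14.65 in GM runs, the narrowest of these ranges.

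In replicates 7 to 9, 1 member lay above all GM runs (DNAJB5) and 9 below, against 7.70% and 7.18% of all probesets. The 9 were the HSPA1A probeset, the shared HSPA1 probeset, HSPA2, HSPA8, HSPA14, HSP90AB1, HSPE1, DNAJA1 and BAG3. The shared HSPA1 probeset had run means of 14.54, 14.92 and 10.97 in N-9 cells, against 11.35 to 14.77 in GM runs. So HSPA1, DNAJA1 and BAG3 lay above every GM run in one N-9 run and below every GM run in another. In replicates 1 to 3, 3 members lay above all GM runs (HSPA6, HSPA13 and HSPH1) and 2 below (HSPA14 and HSPA4L), against 10.8% and 11.5% of all probesets.

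HSPA13 did not follow this order. Its run means after N-9 were 13.09, 10.71 and 11.82, highest in the first run, where HSPA6 was intermediate, and lowest in the run where HSPA6 was highest. Leaving out replicates 4 to 6, a choice made after the runs were seen, gave 4 members called higher and 8 lower after N-9, and DNAJB1 (0.18, adjusted p = 0.559), DNAJB4, BAG1, HSPH1 and DNAJA4 were no longer called. Leaving out replicates 7 to 9 gave 13 higher and 1 lower, and the falls of HSPA8 (-0.030, adjusted p = 0.799) and HSPA2 (-0.46, adjusted p = 0.0996) were no longer called. Leaving out replicates 1 to 3 ended the call for HSPH1 (adjusted p = 0.228). The share of all probesets called without each run was not counted, so these counts cannot be read as particular to the members. HSPA6 stayed called in each case, at 1.55 without replicates 4 to 6, 4.77 without replicates 7 to 9 and 3.36 without replicates 1 to 3. The difference of 3' and 5' signals of the GAPDH control, a sign of RNA quality, was -0.20, -0.21 and 0.36 in the 3 N-9 runs (log2), with GM runs reaching 0.43, and its part in these values was not tested.

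Other genes reported as HSF1 targets were measured as a separate list, 10 of 11 with a probeset. After N-9, 4 of the 10 were called higher and 0 lower, in both fits, and the median difference was 0.42, against -0.01 over all probesets. Of all probesets, 7.35% were called higher and 10.1% lower. ZFAND2A, an arsenite-inducible partner of the proteasome, was 2.32 ± 0.20 higher, and SQSTM1, the autophagy receptor p62, was 1.87 higher. ZFAND2A was above every GM run in all 3 N-9 runs: its run means were 12.29, 13.17 and 11.91, against 9.56 to 11.18 in GM runs. SQSTM1 had 12.27, 12.74 and 12.04, against 9.55 to 11.56, and DEDD2, a death effector domain protein, had 10.97, 11.91 and 10.70, against 9.17 to 10.62. HMOX1, heme oxygenase 1, was 1.01 higher, with run means of 10.04, 9.82 and 9.33 against 8.09 to 10.01 in GM runs. These run means were read after the values were seen and carry no test. In replicates 7 to 9, where HSPA6 lay within the GM range and HSPA1, DNAJA1 and BAG3 lay below it, ZFAND2A, SQSTM1 and DEDD2 still lay above it.

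**Figure D3:**
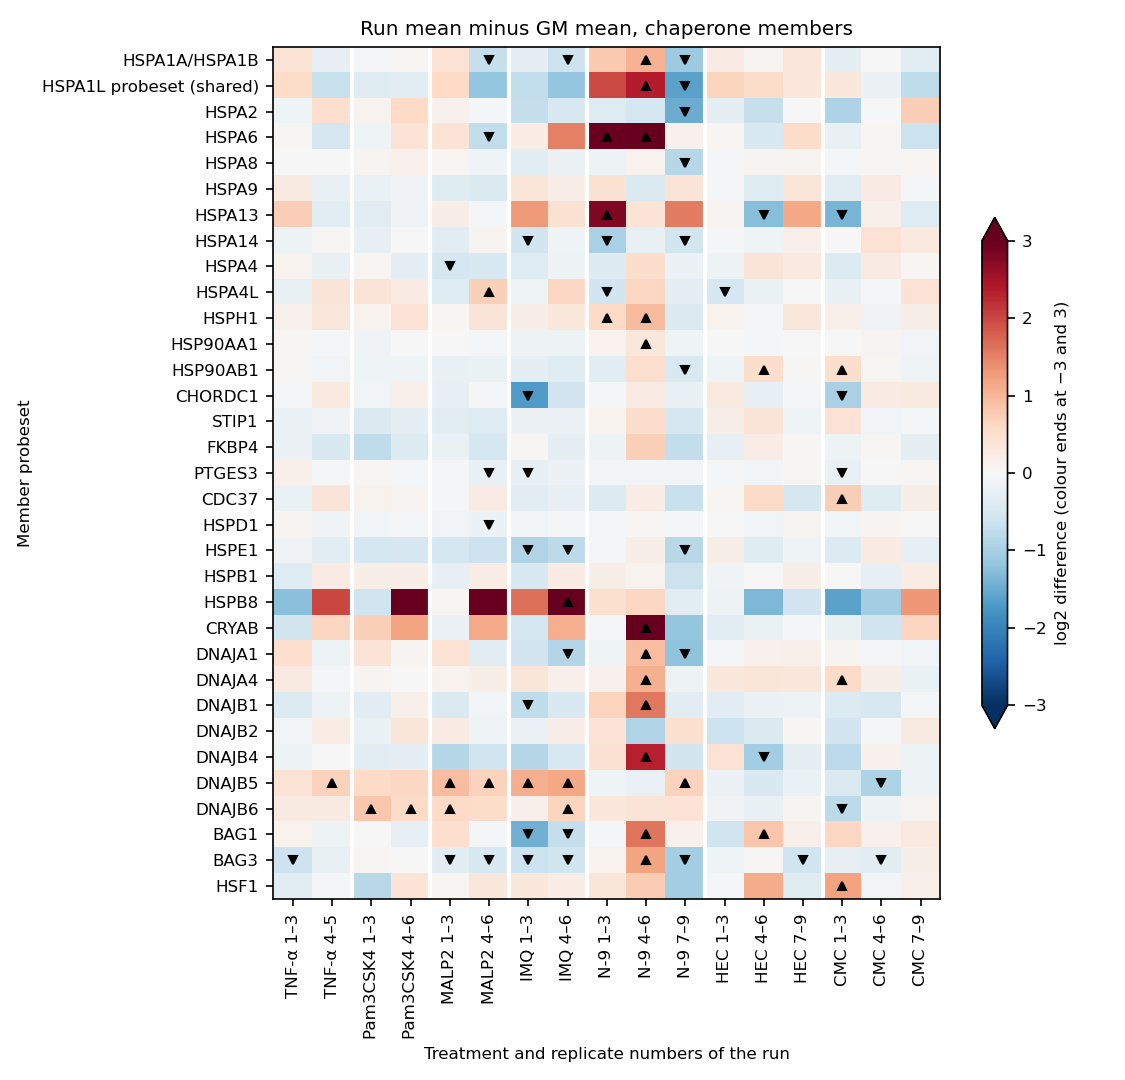
Mean of each of the 17 treated runs minus the mean of GM (log2; red higher, blue lower, colour ending at 3 in either direction) for the 33 member probesets; upward and downward triangles mark run means above or below all 18 GM runs. N-9 replicates 4 to 6 hold 12 upward triangles and N-9 replicates 7 to 9 hold 9 downward ones, and HSPB8 is higher in the second run than in the first after TNF-α, Pam3CSK4, MALP2 and imiquimod.

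Imiquimod was followed by higher levels of 3 members and lower levels of 9, against 4.68% and 6.19% of all probesets, and 7.34% and 10.1% of those with a mean of log2 6 or above. The lower members came from the HSP90 cochaperones (CHORDC1, PTGES3), the mitochondrial chaperonin (HSPE1), the J-domain proteins (DNAJA1, DNAJB1), both exchange factors (BAG1, BAG3) and the HSP70 family (HSPA8, HSPA14). With the run as a block, 5 stayed called lower, namely CHORDC1, HSPE1, DNAJA1, BAG1 and BAG3, and 2 stayed called higher, HSPB8 and DNAJB5. The median difference over the members was -0.17, against 0.00097 over all probesets.

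CHORDC1, an HSP90-binding protein with zinc-binding domains, was 9.96, 10.81 and 11.32 in imiquimod cells (lowest, median and highest of 6 arrays) and 11.00, 11.82 and 12.42 in GM cells, and fell by 1.14 (SE 0.18, adjusted p = 4.21e-07). BAG1 was 8.52, 9.07 and 9.55 in imiquimod cells and 9.26, 10.06 and 10.87 in GM cells, and fell by 1.07 (SE 0.18, adjusted p = 4.73e-06). HSPE1, the mitochondrial cochaperonin HSP10, was 12.01, 12.36 and 12.48 in imiquimod cells and 12.18, 13.14 and 13.99 in GM cells, and fell by 0.84 (SE 0.15, adjusted p = 2.08e-05). Its partner HSPD1, HSP60, was not called on its brightest probeset, at -0.07. DNAJA1, a farnesylated HSP40, was 12.44, 12.58 and 12.95 in imiquimod cells and 12.43, 13.28 and 14.32 in GM cells, and fell by 0.72 (SE 0.18, adjusted p = 0.00251).

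BAG3 in imiquimod cells did not overlap with GM cells, but low BAG3 levels were not particular to imiquimod. BAG3 also lay below all GM runs in both MALP2 runs. The same held for TNF-α replicates 1 to 3, N-9 replicates 7 to 9, HEC replicates 7 to 9 and CMC replicates 4 to 6. The lowest BAG3 arrays were 11.60 after N-9, 12.04 after TNF-α and 12.09 after MALP2, HEC and CMC. Its 6 imiquimod arrays lay between 12.01 and 12.16, all below the lowest of the 53 GM arrays at 12.26, and the fall was 0.61 (SE 0.16, adjusted p = 0.00335). DNAJB1 also fell by 0.61 (adjusted p = 0.0282), but not with the run block (adjusted p = 0.0687). Falls of 0.34 for HSPA14, 0.26 for HSPA8 and 0.21 for PTGES3, the p23 cochaperone of HSP90, also lost their calls there (adjusted p = 0.156, 0.118 and 0.0725).

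HSPB8, a small heat shock protein that works with BAG3, was the highest member after imiquimod. It was 7.97, 9.75 and 11.52 in imiquimod cells and 2.65, 6.53 and 10.84 in GM cells, a difference of 3.33 ± 0.68, or 10.0-fold (adjusted p = 0.000144). Of the 6 imiquimod arrays, 3 exceeded the highest GM array. Those 3 were replicates 4 to 6, with a run mean of 11.45, against 8.08 in replicates 1 to 3 and 3.92 to 10.75 over the GM runs. Without replicates 4 to 6 the difference was 1.64 (adjusted p = 0.289). The other HSPB8 probeset gave 0.33 (adjusted p = 0.673).

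HSPB8 differed between runs in the same manner after the other ligands. Its run means were 5.17 and 8.44 after TNF-α, 5.83 and 10.29 after Pam3CSK4, and 6.50 and 9.72 after MALP2, first and second run, with no call in any of the 3 treatments (for Pam3CSK4 the difference was 1.63, adjusted p = 0.256, and for MALP2 1.67, adjusted p = 0.139). CRYAB, also a small heat shock protein, had the same ordering of runs: 8.49 and 9.67 after TNF-α, 9.75 and 10.23 after Pam3CSK4, 8.86 and 10.18 after MALP2, and 8.51 and 10.13 after imiquimod. HSPB1, HSP27, was called in no comparison.

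HSPE1, BAG1 and BAG3 lay below all GM runs in both imiquimod runs. BAG1 had run means of 8.70 and 9.44 in imiquimod cells, both below the lowest GM run at 9.52, and HSPE1 had 12.26 and 12.37, both below its GM runs. CHORDC1 had 10.17 and 11.30, against 11.20 to 12.39 in GM runs, so only its first run lay below. In all, 1 member lay above all GM runs and 7 below in replicates 1 to 3 (8.67% and 8.72% of all probesets), and 3 above and 5 below in replicates 4 to 6 (5.52% and 5.26%). Without replicates 1 to 3, HSPE1 and DNAJA1 were the 2 members still called lower, and CHORDC1 (-0.58, adjusted p = 0.17), BAG1 (-0.71, adjusted p = 0.0977) and BAG3 (-0.59, adjusted p = 0.122) were not. The ACTB difference of 3' and 5' signals was 0.95 ± 0.68 in imiquimod cells and 0.43 ± 0.28 in GM cells (SD; adjusted exact Wilcoxon p = 0.0440), with run means of 1.45 and 0.46, and its part in the lower values was not tested.

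**Figure D4:**
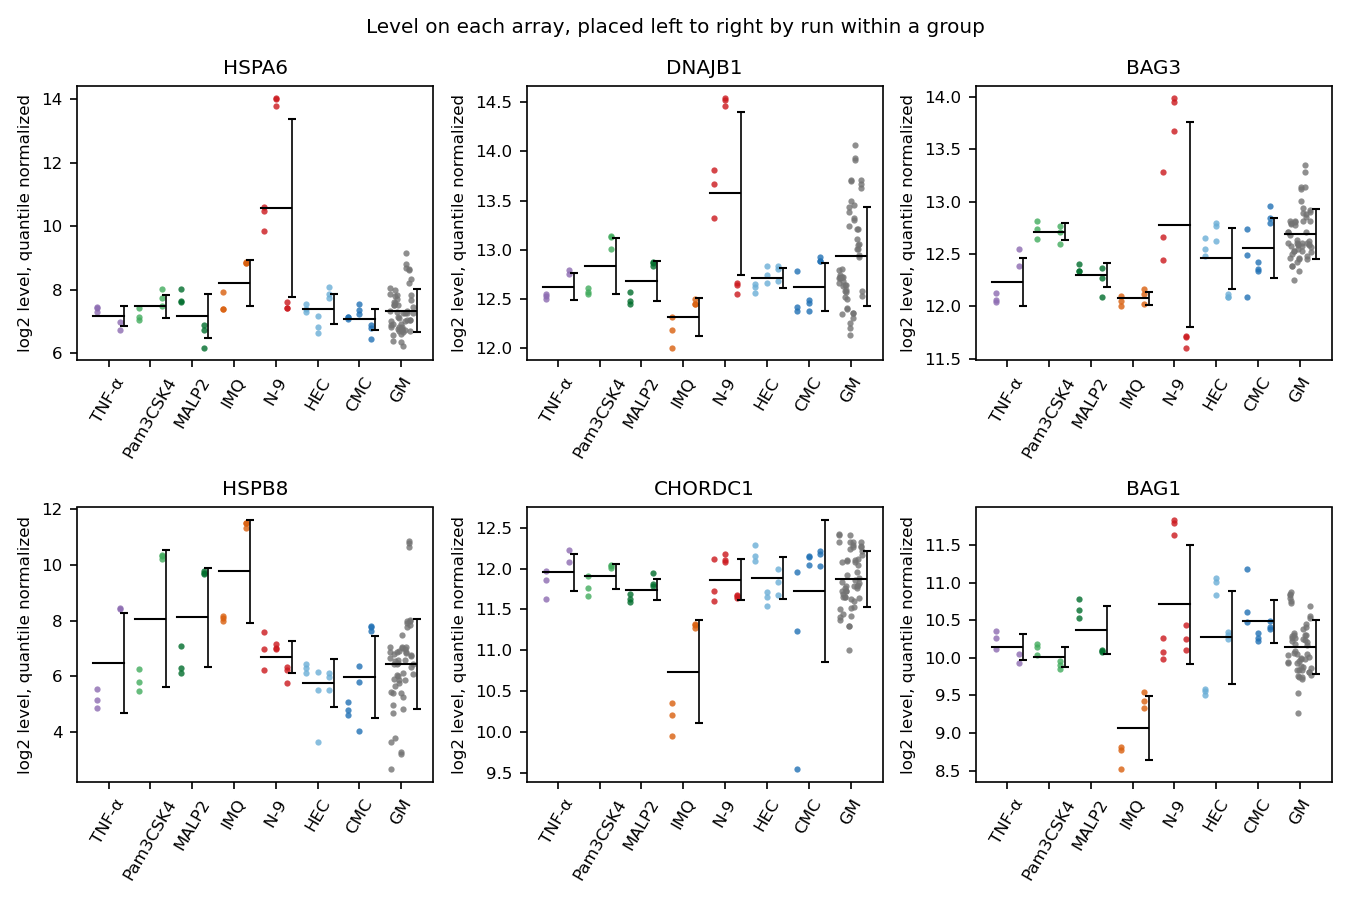
Log2 level on each array (points) with the group mean and SD (black) for 6 members in the 7 treatments and GM; points run left to right by run within a group. HSPA6, DNAJB1 and BAG3 split by run in N-9 cells, and BAG3 lies between 12.01 and 12.16 on the 6 imiquimod arrays.

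DNAJB5, a J-domain protein of the HSC40 type, was the member whose imiquimod and GM arrays did not overlap upwards. Its 6 imiquimod arrays had 9.19, 9.32 and 9.43 (lowest, median and highest), all above the highest GM array, against 7.05, 8.22 and 8.97 in GM cells, a difference of 1.12 ± 0.18 (2.17-fold, adjusted p = 8.53e-07). MALP2 gave 8.80, 9.07 and 9.17, a difference of 0.81 ± 0.18 (adjusted p = 0.00074). Pam3CSK4 gave 8.52, 8.90 and 8.98, a difference of 0.60 that lost its call with the run block (adjusted p = 0.0461, and 0.363 with the block). TNF-α gave a difference of 0.53 that was not called. After N-9 the DNAJB5 run means were 8.07, 7.99 and 8.88, against 7.47 to 8.87 in GM runs.

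Pam3CSK4 left 2 members higher and 1 lower, against 1.31% and 0.859% of all probesets. MALP2 left 2 higher and 3 lower, against 3.28% and 3.66%. At a mean of log2 6 or above the shares were 2.08% and 1.40% after Pam3CSK4, and 5.17% and 5.93% after MALP2. DNAJB6, a J-domain protein that holds back aggregation, was 12.47, 12.66 and 12.84 after Pam3CSK4 and 12.21, 12.58 and 12.73 after MALP2, against 11.30, 11.93 and 12.60 in GM cells. Its differences were 0.70 ± 0.12 after Pam3CSK4 (adjusted p = 6.93e-05) and 0.57 after MALP2 (adjusted p = 0.000572). On the brightest DNAJB6 probeset that names no other gene the differences were 0.40 (adjusted p = 0.283) and 0.22 (adjusted p = 0.572), so both calls rest on a probeset that also names TMEM135. After imiquimod DNAJB6 was 11.88, 12.41 and 12.67, a difference of 0.41 that was lost with the run block (adjusted p = 0.158). HSPE1 was 12.44, 12.64 and 12.79 after Pam3CSK4 and 12.43, 12.59 and 12.77 after MALP2. It fell by 0.52 after Pam3CSK4 and by 0.57 after MALP2, and neither call was kept with the run block (adjusted p = 0.244 and 0.0608).

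After MALP2, HSPA4, an HSP110, was 11.37, 11.55 and 11.61, against 11.46, 12.01 and 12.57 in GM cells, and fell by 0.48. HSPA9, the mitochondrial HSP70 mortalin, was 12.60, 12.74 and 12.92, against 12.58, 13.15 and 13.68 in GM cells, and fell by 0.39. Both calls were lost with the run block (adjusted p = 0.276 and 0.116). The 2 lipopeptides were given at different doses, and no member passed the test between them (lowest adjusted p = 0.668; 0.0989% of all probesets were higher and 0.110% lower after MALP2 than after Pam3CSK4).

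TNF-α gave 0 called members in either direction, against 0.526% and 0.196% of all probesets, and at an unadjusted p under 0.05 there were 2, DNAJB5 and BAG3. HEC gave 0 as well (0.328% higher and 0.465% lower over all probesets), with DNAJA4 alone at an unadjusted p under 0.05. CMC gave 0 (0% and 0.00183%), with 4 at an unadjusted p under 0.05, HSPA14, DNAJB5, DNAJB6 and BAG1. Between HEC and CMC, at the same dose, no member passed the test (lowest adjusted p = 0.711; 0% of all probesets called in either direction). The interval of their difference did not always exclude a sizeable one: for the shared HSPA1 probeset HEC minus CMC was 0.72 with a 95% interval of -0.20 to 1.65, for HSPA13 it was 0.53 (-0.25 to 1.30), and for HSPA1A 0.41 (-0.05 to 0.88).

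N-9 and imiquimod, the PICs with the most calls among the members, were also compared directly. In N-9 cells 9 members were higher and 2 lower than in imiquimod cells, against 5.19% and 5.57% of all probesets. Over the probesets with a mean of log2 6 or above, the shares were 7.61% and 8.69%. BAG1 differed by 1.64 (adjusted p = 5.17e-08), DNAJB1 by 1.26 (adjusted p = 9.61e-05), CHORDC1 by 1.13 (adjusted p = 8.23e-05), HSPA6 by 2.36 (adjusted p = 0.000828) and DNAJB4 by 1.39 (adjusted p = 0.00283). The shared HSPA1 probeset differed by 1.86 (adjusted p = 0.0104) and BAG3 by 0.70 (adjusted p = 0.0081), although neither was called between N-9 and GM cells. HSPE1 (0.60) and HSP90AA1 (0.26) lost their calls with the run block (adjusted p = 0.123 and 0.115). Without N-9 replicates 4 to 6 the calls for HSPA6 (0.68, adjusted p = 0.327), DNAJB4 (0.60, adjusted p = 0.273), BAG3 (0.16, adjusted p = 0.622) and the shared HSPA1 probeset (1.14, adjusted p = 0.211) ended, and without imiquimod replicates 1 to 3 those 4 calls (adjusted p from 0.0514 to 0.118) and that for CHORDC1 (0.57, adjusted p = 0.210) ended. HSPB8 was lower in N-9 cells by 3.07 on the log2 scale (difference -3.07, adjusted p = 0.00756), and DNAJB5 was 2.00-fold lower there (adjusted p = 0.000625). Without imiquimod replicates 4 to 6, HSPB8 was no longer called (-1.38, adjusted p = 0.458).

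Against the mean of the other 4 PICs, N-9 cells had 8 members higher and 4 lower (9.01% and 10.7% of all probesets). Over the probesets with a mean of log2 6 or above, the shares were 12.4% and 16.3%. HSPA6 was 3.06 higher, HSPA13 1.32, the shared HSPA1 probeset 1.30, DNAJB4 1.18, DNAJB1 0.96 and BAG1 0.81, while BAG3 (0.45) and HSP90AA1 (0.16) lost their calls with the run block (adjusted p = 0.0596 and 0.173). HSPA2, DNAJB5, HSPA14 and HSPA8 were lower, with differences of -0.78, -0.65, -0.42 and -0.27. Without N-9 replicates 4 to 6, the calls for the shared HSPA1 probeset, DNAJB1, DNAJB4, BAG1 and DNAJB5 ended as well (adjusted p from 0.0636 to 0.409), and HSPA6 was 1.38, and without replicates 7 to 9 those for HSPA2 and HSPA8 did. Without N-9 replicates 1 to 3 those for HSPA13 (0.72, adjusted p = 0.186), the shared HSPA1 probeset (0.76, adjusted p = 0.262) and HSPA14 (-0.22, adjusted p = 0.230) ended. Imiquimod cells against the other 4 PICs had 2 members higher and 3 lower (1.73% and 2.03% of all probesets). At a mean of log2 6 or above the shares were 2.82% and 3.32%. Those higher, HSPB8 and DNAJB5, were both lost with the run block (adjusted p = 0.158 and 0.356). Those lower were BAG1 at -1.24, CHORDC1 at -1.13 and DNAJA1 at -0.82. N-9 cells against HEC cells, a NIC with the same number of arrays, had 5 members higher and 2 lower (3.79% and 4.81%). N-9 was not compared with CMC, which had as many arrays. The shares at a mean of log2 6 or above were 5.71% and 7.98%. HSPA6 was 3.17 higher than after HEC, HSPA13 1.60, DNAJB4 1.03 and DNAJB1 0.86, and DNAJB6 (0.47) lost its call with the run block (adjusted p = 0.158). Without N-9 replicates 4 to 6 the calls for DNAJB4 and DNAJB1 against HEC ended (adjusted p = 0.692 and 0.268), and without replicates 7 to 9 that for HSPA8 did (adjusted p = 0.710). Without replicates 1 to 3 those for HSPA13 (0.99, adjusted p = 0.133) and HSPA14 (adjusted p = 0.0769) against HEC ended. These comparisons share arrays with those above and do not add separate evidence.

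**Figure D5:**
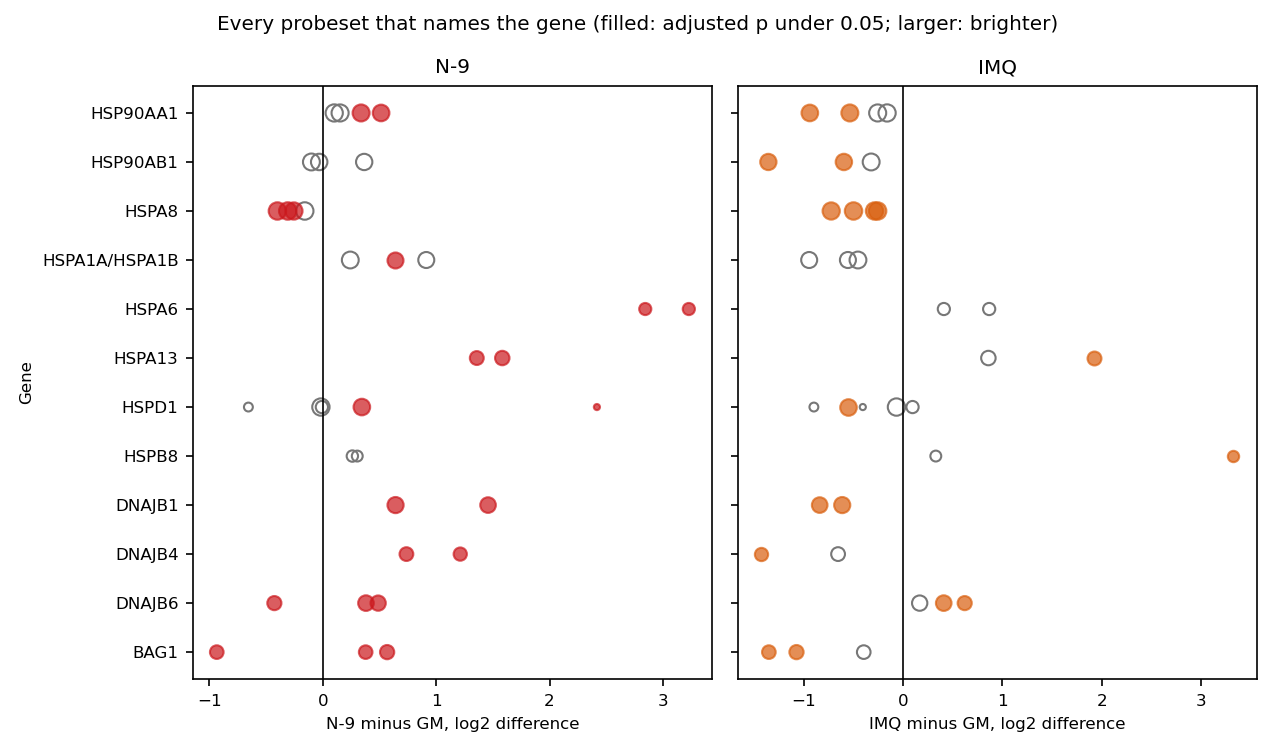
Log2 difference from GM on every probeset that names the gene, after N-9 (left) and imiquimod (right); filled points have an adjusted p under 0.05 and larger points are brighter probesets. BAG1 and DNAJB6 have filled points on both sides of 0 after N-9, and HSP90AA1, HSP90AB1 and HSPA8 have filled points on the lower side after imiquimod.

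Several members had other probesets that passed the test where the brightest one did not, and these were picked out after their values were seen. After imiquimod, HSP90AB1, the constitutive HSP90, was not called on its brightest probeset (-0.32), but was on another at -1.36 (adjusted p = 0.000524) and on the remaining one at -0.60. HSP90AA1 was not called on its brightest probeset (-0.16), but was on others at -0.94 (adjusted p = 0.00179) and -0.54. HSPA13 had a probeset at 1.92 (adjusted p = 2.69e-08) after imiquimod, and DNAJB4 one at -1.43 (adjusted p = 0.00185). After N-9, DNAJA1 had a second probeset at -0.74 (adjusted p = 1.13e-05), while its brightest differed by -0.14. For HSP90AB1, HSP90AA1, HSPA13, DNAJB4, DNAJA1, DNAJB6, HSPB8, BAG1 and HSPA14 the call in at least 1 treatment thus depended on the probeset.

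Among the member probesets, 11 were called in none of the 13 comparisons, although dimmer probesets of HSP90AB1 and HSPA1 passed the test as given above. They were the HSPA1A and HSPA1B probeset, HSPA4L, HSP90AB1, the HSP90 cochaperones STIP1, FKBP4 and CDC37, HSPD1, HSPB1, CRYAB, DNAJB2 and HSF1. HSF1, the transcription factor of the heat shock response, differed by 0.03 after N-9 and by 0.27 after imiquimod (adjusted p = 0.966 and 0.711). FKBP4, an immunophilin partner of HSP90, was lowest after Pam3CSK4 at -0.58 (adjusted p = 0.117). CRYAB had a difference of 0.78 after N-9 (adjusted p = 0.0885), with 1 run above the GM range and 2 inside it. The HSPD1 difference farthest from 0 over the 7 treatments was -0.13, after MALP2.

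Other genes of the folding machinery were counted as separate lists. Over all probesets, 7.35% were called higher and 10.1% lower after N-9, and 4.68% and 6.19% after imiquimod. At a mean of log2 6 or above the shares were 10.2% and 16.0% after N-9, and 7.34% and 10.1% after imiquimod. Of 7 measured subunits of the CCT chaperonin, which folds actin and tubulin, 2 fell after N-9 (CCT3 by 0.45 and CCT2 by 0.36) and 2 after imiquimod (CCT3 by 0.46, and CCT6A by 0.32 with an adjusted p of 0.11 under the run block). Of 44 measured other chaperones, 3 were called higher and 7 lower after N-9 (2 and 4 with the run block), with a median difference of -0.06. Both counts were no larger a part of this list than the shares at a mean of log2 6 or above. The called genes included PFDN2 (0.61 higher), a prefoldin subunit, DNAJB14 (0.36 higher), DNAJC5 (fell by 0.79) and FKBP5 (fell by 0.50). After imiquimod 2 were called higher, both lost with the run block, and 6 lower, including BAG2, an inhibitor of HSP70-linked ubiquitination, which fell by 1.51, and FKBP5, an HSP90-binding immunophilin, which fell by 0.90. BAG2 also fell by 1.90 after MALP2 and by 1.18 after Pam3CSK4. Among other HSF1 targets after imiquimod, 4 of 10 were higher and 2 lower (3 and 1 with the run block, where HMOX1 and MRPL18 were lost at adjusted p = 0.0749 and 0.0535), with RGS2, a regulator of G protein signalling, 2.56 higher and ZFAND2A 1.64 higher, while HSPA6 was not called at 0.87.

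Untreated cells varied from run to run as well. In GM cells the SD of run means exceeded the SD within runs for all 33 member probesets. The shared HSPA1 probeset had an SD of 1.06 between runs and 0.134 within them, HSPB8 1.55 and 0.656, HSPA6 0.645 and 0.270, and DNAJB1 0.501 and 0.0909. HSPD1 was among the steadiest at 0.0850 and 0.0580. Single runs of untreated cells thus differed in HSPA1 by more than the N-9 and GM means did.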

How the data were processed

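Affymetrix HG-U133 Plus 2.0 arrays (54675 probesets, 62 of them control probesets) made up 105 samples. The log2 signals were used as deposited by the authors. The submitters' notes name MAS5 and GCOS 1.3, whereas the methods of the study describe RMA in GeneSpring; the linear values lie on steps of 0.1 and the array distributions differ, so quantile normalization was added here. GM replicate 52 was left out, since its values followed no other array (highest correlation 0.0493, against at least 0.836 for other pairs), as was TNF-α replicate 6, which equalled the mean of replicates 1 to 3 within 7.67e-09. No other arrays held identical values.

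Differences and standard errors came from 1 limma fit (limma 3.58.1, R 4.3.3) with a mean per group. Benjamini-Hochberg adjustment was over all 54613 probesets. The fit was tried beforehand on simulated arrays drawn independently, without runs. That trial cannot show how its p-values hold in arrays that vary together within runs. Runs of 3 consecutive replicate numbers entered an alternative fit as a random block (consensus correlation 0.438). In each treatment with calls, the 4 highest and 4 lowest called members are given with lowest, median and highest arrays. Some of the called genes of other lists are named, and others are not. The number of arrays limits the precision. Gene names came from the platform annotation, promoters from RefSeq. Members and lists were chosen with earlier results of these data known. Alternatives were the scaling, an offset, a filter on dim probesets, the blocks, other controls, all arrays, other probesets, and arrays or runs left out.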

Additional observations from a re-analysis of the deposited data

Results flagged for a closer look

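Of 65 sets of arrays checked for a single array far from the rest, covering each called member in its treatment and the 6 members plotted by array, 3 held one, where chance gives about 1 in 20. CMC replicate 3 had the lowest CHORDC1 level of its group, 9.54, with the nearest CMC array at 11.23. The same array had the highest BAG1 level of the CMC group, 11.18, with the nearest at 10.61. HEC replicate 4 had the lowest HSPB8 level of its group, 3.62, apart from the other 8. None of these members was called after CMC or HEC.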

How the results depend on the processing

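Only counts that moved beyond a set ratio of the first count are listed in this section. Smaller shifts are not, such as 6 rather than 8 members higher after N-9 with the run block. The share of all probesets called was not counted in these alternative fits, so their counts cannot be read as particular to the members. With an offset of 16 on the linear signals no count moved in this sense, and all 66 named differences kept sign and call. Keeping probesets with a mean of log2 6 or above moved 1 count, with 5 members lower after imiquimod than after the other 4 PICs. On the deposited scale, without quantile normalization, Pam3CSK4 had 1 member higher and 0 lower, imiquimod had 1 higher than the other 4 PICs and N-9 had 1 lower than HEC, and HSPA8 was 0.068 higher after N-9 than in GM cells and 0.21 higher than after the other 4 PICs. With the runs as a random block, Pam3CSK4 had 1 higher and 0 lower, MALP2 0 lower, imiquimod 5 lower, and imiquimod had 0 higher than the other 4 PICs.

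When the controls were reduced to GM replicates 1 to 9, TNF-α had 1 member higher and 1 lower, Pam3CSK4 4 and 4, MALP2 5 lower, N-9 4 higher and CMC 1 higher. Replicate numbers did not pair the samples throughout. Departures of same-numbered arrays correlated with those of GM at -0.238 to 0.330 in N-9 (6 of 9 over 0.1). They did so at -0.174 to 0.342 in HEC (6 of 9 over 0.1), -0.221 to 0.036 in CMC and -0.085 to 0.076 in Pam3CSK4, MALP2 and imiquimod. Pairs over 0.1 were replicates 1 to 6 in both N-9 and HEC, and whether these were paired was not tested. Of the 9 arrays, 3 in N-9 and 2 in HEC correlated best with the GM array of their own number. With the replicate number as a block on those controls, TNF-α had 1 higher and 4 lower, Pam3CSK4 4 and 6, MALP2 6 lower, N-9 4 higher, CMC 1 higher, and imiquimod had 6 lower than the other 4 PICs.

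With all 105 arrays, including the 2 left out, Pam3CSK4 had 0 higher and 0 lower, MALP2 1 and 0, imiquimod 1 lower, N-9 3 higher and 0 lower, N-9 against imiquimod 3 higher, N-9 against the other 4 PICs 3 and 1, imiquimod against them 0 and 0, and N-9 against HEC 2 and 0; PTGES3 turned to 0.028 after imiquimod. On the brightest probeset naming the member alone, Pam3CSK4 and MALP2 had 1 higher each and N-9 1 lower than HEC, and DNAJB6 was -0.43 after N-9 against GM and -0.044 against HEC. On the mean over a member's probesets, Pam3CSK4 had 1 higher and 2 lower, MALP2 5 lower, N-9 against imiquimod 1 lower, N-9 against the other 4 PICs 13 higher, and imiquimod against them 6 lower.

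Runs were left out after the data were seen. Without N-9 replicates 1 to 3, N-9 had 4 higher than the other 4 PICs and 1 lower than HEC. Without N-9 replicates 4 to 6, N-9 had 4 higher and 8 lower than GM, 3 higher than imiquimod, 3 higher and 7 lower than the other 4 PICs and 5 lower than HEC, imiquimod had 1 higher than the other 4 PICs, and DNAJA4 (-0.0072) and DNAJB4 (-0.055) against GM and BAG3 (-0.094) against the other PICs changed sign. Without N-9 replicates 7 to 9, N-9 had 13 higher and 1 lower than GM, 16 and 2 against the other 4 PICs and 12 and 1 against HEC, imiquimod had 9 lower than the other 4 PICs, and HSPA8 was 0.012 against them. Without imiquimod replicates 1 to 3, imiquimod had 2 lower than GM and 1 higher and 1 lower than the other 4 PICs, and N-9 had 2 higher than imiquimod. Without imiquimod replicates 4 to 6, imiquimod had 1 higher than GM and 0 higher than the other 4 PICs, and N-9 had 1 lower than imiquimod. With single arrays left out, members higher after N-9 numbered 5 to 10 (moved without replicates 4, 5 or 6), lower after MALP2 1 to 3 (without 4 or 5), higher after Pam3CSK4 1 to 1 and lower 0 to 0, and imiquimod had 0 to 2 higher than the other 4 PICs. The cause of these changes was not tested.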

Other observations

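Across the 53 untreated arrays some members varied together. This is a description with no test, and arrays of the same run are not independent. The inducible HSP70 probeset of HSPA1A followed the J-domain gene DNAJA1 (Pearson r = 0.858, Spearman rho = 0.788). STIP1 and FKBP4, both HSP90 cochaperones with tetratricopeptide repeats, had r = 0.827 and rho = 0.809. HSPA9 and HSPA13 had r = 0.781 and rho = 0.781. The lowest pairs were HSPA13 with HSPA14 (r = -0.595, rho = -0.432) and HSPE1 with CRYAB (r = -0.581, rho = -0.633). HSPA13 and HSPA14 also went in opposite directions after N-9, where HSPA13 was higher and HSPA14 lower than in GM cells.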
